A study of Mus musculus with 28 samples.

Results

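The cell body layer of hippocampal field CA2 was set against that of field CA3, using RNA sequenced from laser-captured tissue. The comparison holds 6 libraries, chosen by the field, layer and mouse number in their names: 3 of CA2 cell bodies and 3 of CA3 cell bodies, with 1 of each from mice 492, 496 and 502. They are 6 of the 24 libraries with a column in the gene table, in a series of 28 samples. The other columns hold CA1 and dentate gyrus (DG) cell bodies and the dendritic layers of all 4 fields, from the same 3 animals. Both groups came from adult males, 6 to 8 weeks old and of separate litters, that carry an Amigo2-EGFP reporter, a transgene that marks CA2 neurons with green fluorescent protein, on C57BL/6J. No treatment is named for either group, and the CA3 libraries carry the reporter too. Each library pooled tissue from many thin sections of 1 brain. A captured strip of stratum pyramidale holds pyramidal cell bodies together with glia, vessels and interneurons, so fewer cells of a type and less RNA per cell cannot be told apart in any value below.

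CA2 is a short field between CA3 and CA1. Its pyramidal cells are known for weak long-term potentiation at the inputs they receive from CA3, for dense perineuronal nets, which are coats of extracellular matrix around a neuron, and for a part in social memory. CA3 pyramidal cells receive mossy fibre synapses from granule cells on large spines near the cell body, and they excite one another through recurrent collaterals.

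Values are log2 normalized read estimates as deposited, so a difference of 1 is a factor of 2, values given for 3 libraries are those of mice 492, 496 and 502 in that order, and coordinates are GRCm38. Normalized values summed to 46800000 to 55500000 per CA2 library and 44000000 to 50000000 per CA3 library. The mitochondrial genome gave 7.15% to 9.08% of this sum in CA2 and 5.71% to 6.74% in CA3, without overlap. Genes with a normalized value of at least 10 numbered 18439 to 19443 in CA2 and 19010 to 19287 in CA3. Read totals are not recoverable from these values, so no errors from counting are given. Each SE (standard error) is that of the linear model fitted with limma. Its variance was estimated over all 24 libraries of 8 groups, dendritic layers among them. So an SE is not the spread of the CA2 minus CA3 difference over the 3 mice.

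Limma called 574 of 24911 genes higher in CA2 than in CA3 (2.3%) and 318 lower (1.28%), or 892 in all (3.58%), at a Benjamini-Hochberg adjusted p below 0.05. At an unadjusted p below 0.05 there were 2753. The difference was above 1 for 472 of the higher genes and below -1 for 256 of the lower ones, and the median size was 1.59 among higher and 1.53 among lower genes. CA2 and CA3 libraries did not overlap for 572 of the 574 higher genes and for all 318 lower genes, where 14.3% of all genes had every CA2 library above every CA3 library and 9.59% had every one below. The mean of CA2 was the highest of the 4 cell body groups for 406 of the higher genes, and that of CA3 was the highest for 241 of the lower genes, an order that uses the same CA2 and CA3 libraries as the calls. Higher genes made up 64.3% of the calls as deposited, 51.9% after quantile normalization (570 higher, 529 lower), 53.1% after scaling to equal totals (564 and 499) and 53.7% after scaling to totals outside the mitochondrial genome (620 and 534). With 2 mice in place of 3 the counts fell to 322 higher and 125 lower without mouse 492, 345 and 167 without mouse 496, and 239 and 128 without mouse 502. Without the CA2 library of mouse 502 alone, 352 genes were higher and 255 lower, and 175 and 178 were lower without the CA3 library of mouse 492 or of mouse 502. A gene named below as called in the comparison of cell bodies kept that call in all 20 alternatives run, unless a sentence says otherwise. This does not cover the calls for dendrites, for the layers or for transcripts.

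**Figure D1:**
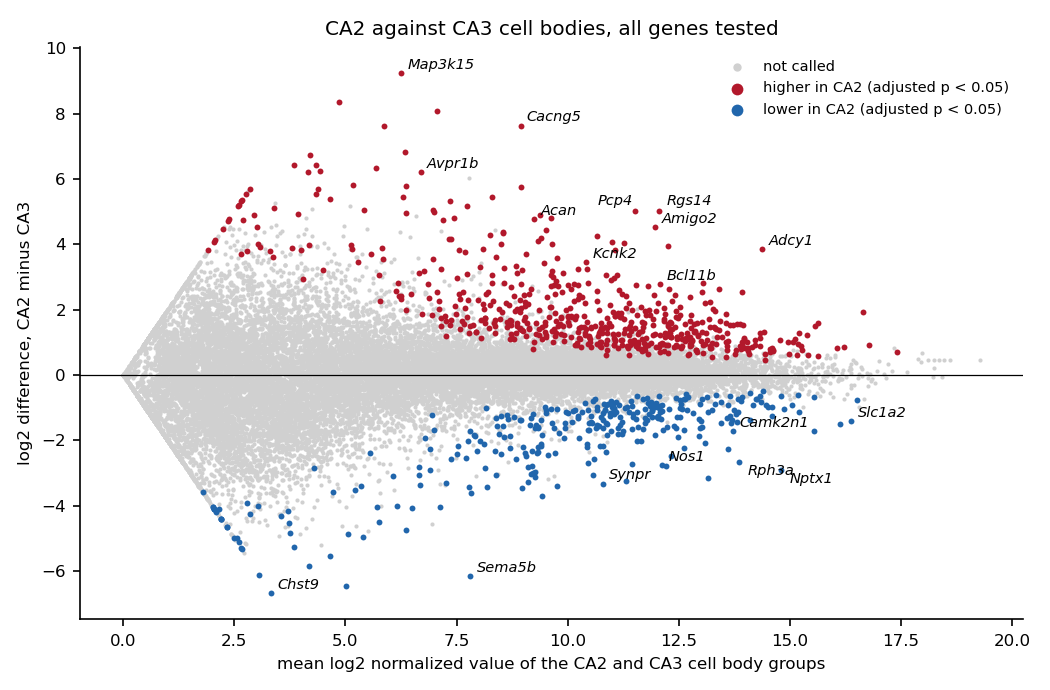
Log2 difference (CA2 minus CA3 cell bodies, vertical axis) against the mean log2 normalized value of both groups (horizontal axis) for the 24911 genes tested, with the 574 higher genes in red, the 318 lower genes in blue and the others in grey. Adcy1 and Nptx1 lie far from 0 at high levels, whereas Map3k15 reaches its difference from CA3 libraries of which 2 lie near the floor of 0.

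Genes known as CA2 markers had the greatest median difference of the 44 gene lists read. Of 28 tested, 21 were higher in CA2, 1 was lower and 6 were not called, with a median difference of 2.44, against 0.04 for all genes. Without mouse 502, 14 were higher. Rgs14 (chr13:55369732-55384687), a regulator of G-protein signalling that limits plasticity in CA2, had values of 14.50, 14.52 and 14.67 in CA2 and 9.68, 9.59 and 9.34 in CA3. The groups lie far apart, and the difference was 5.02 ± 0.252 (SE, adjusted p = 2.22e-12). Its mean was 11.85 in CA1 and 10.54 in DG cell bodies. Cacng5 (chr11:107874605-107915055), a transmembrane partner of AMPA receptors, had 12.77, 12.63 and 12.88 in CA2 and 5.72, 4.20 and 5.45 in CA3. All 3 CA3 libraries were low and the CA2 libraries close together, for a difference of 7.63 ± 0.497 (SE, adjusted p = 2.26e-10). Amigo2 (chr15:97244125-97247287), an adhesion molecule and the gene the reporter was made from, had 14.29, 14.06 and 14.36 in CA2 and 9.83, 9.76 and 9.57 in CA3. It differed by 4.52 ± 0.331 (SE, adjusted p = 1.49e-09), and whether transgene sequence adds to its CA2 values was not tested.

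Pcp4 (chr16:96467606-96525793), a small calmodulin regulator, had 13.87, 13.71 and 14.48 in CA2 and 8.60, 9.11 and 9.30 in CA3, a difference of 5.02 ± 0.571 (SE, adjusted p = 5.69e-06). Its mean in DG cell bodies, 12.84, lay between the CA2 and CA3 values. Necab2 (chr8:119446719-119472640), a calcium-binding protein, differed by 4.04, Fgf2, a growth factor, by 3.24, and Ptpn5, the phosphatase STEP, by 2.81. Gpr12, an orphan receptor, Mgst3, a glutathione transferase, Adcy5, an adenylyl cyclase, S100b, a calcium-binding protein, Srgap2, which shapes the membrane at spines, and Lman2, a cargo receptor of the secretory pathway, were higher by 1.58 to 2.48. Map3k15 (chrX:159988433-160123351), a kinase of the MAP kinase cascades, had the greatest difference among called genes, 9.24 ± 1.58 (SE, adjusted p = 0.000495). Its values were 11.11, 10.64 and 10.89 in CA2 and 0.13, 0 and 4.78 in CA3, so 2 of the 3 CA3 libraries stood at the floor and the size rests on them. Avpr1b, the vasopressin receptor through which CA2 takes part in social behaviour, had 9.81, 9.73 and 9.87 in CA2 and 3.30, 4.08 and 3.36 in CA3 (difference 6.22 ± 1.31, SE, adjusted p = 0.00441), and its call was lost without mouse 492 or mouse 502.

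Not every listed marker was higher. Nptx1 (chr11:119538719-119547753), a secreted pentraxin that gathers AMPA receptors, was lower in CA2, with 13.33, 13.49 and 13.25 against 16.30, 16.16 and 16.32 in CA3, a difference of -2.91 ± 0.221 (SE, adjusted p = 2.9e-09). Its means in CA1 and DG, 13.82 and 14.93, also lay below CA3. Ntf3, the neurotrophin-3 gene, stood at 10.84, 10.61 and 10.96 in CA2 and 5.47, 4.14 and 4.67 in CA3. Its groups did not overlap, yet its difference of 6.04 ± 1.82 (SE) was not called (adjusted p = 0.0725), nor was the 4.44 of Sostdc1, a secreted BMP antagonist (adjusted p = 0.108). Ntf3 and Sostdc1 were each called higher in 3 of 20 alternatives. Cabp7 differed by 0.40 and Actn2 by -0.59, and neither passed, though Cabp7 was called in 1 of 20 alternatives.

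**Figure D2:**
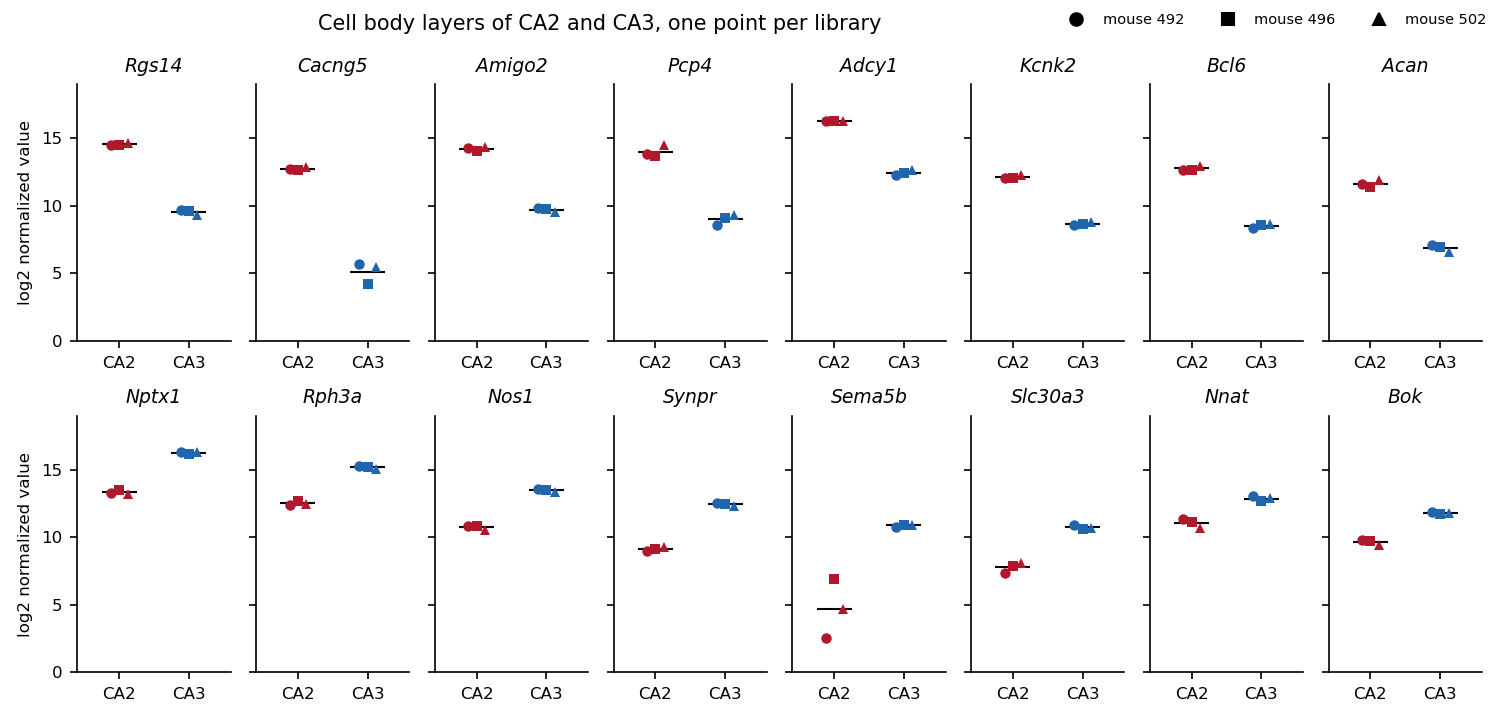
Log2 normalized value (vertical axis) of 16 genes in each CA2 library (red, left) and CA3 library (blue, right), with symbols for mice 492, 496 and 502 and a line at each group's mean. CA2 lies above CA3 in every library for the 8 genes of the upper row and below it for the 8 of the lower row, and Sema5b varies from 2.53 to 6.93 among the CA2 libraries.

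CA3 markers differed less. Of 19 tested, 6 were lower in CA2, 0 were higher by limma (1 at an unadjusted p below 0.05) and 13 were not called. Their median difference was -0.59. Without mouse 502, 3 were lower. Nnat, the imprinted gene neuronatin, had 11.34, 11.13 and 10.70 in CA2 and 13.06, 12.70 and 12.90 in CA3 (difference -1.83 ± 0.22, SE, adjusted p = 4.76e-06). Nectin3, an adhesion molecule, had 11.76, 12.16 and 12.15 in CA2 and 13.95, 13.80 and 13.89 in CA3 (difference -1.86 ± 0.323, SE, adjusted p = 0.000612). Neither gene's groups overlapped. Bok, a relative of the BCL2 family, had 9.78, 9.70 and 9.47 in CA2 and 11.91, 11.78 and 11.78 in CA3, a difference of -2.17 whose call was lost without mouse 502. Several other CA3 markers were high in both fields, with differences that were not called. Grik4, a kainate receptor subunit, had 12.54, 12.56 and 12.57 in CA2 and 12.65, 12.65 and 12.69 in CA3, against a CA1 mean of 8.35. Cpne4, a copine, averaged 14.93 in CA2 and 14.79 in CA3 against 7.29 in CA1, and Spock1, a proteoglycan, averaged 15.63 in CA2 and 15.44 in CA3 against 10.56. Their differences were -0.11 ± 0.281 for Grik4, 0.14 ± 0.469 for Cpne4 and 0.19 ± 0.285 for Spock1 (SE). The libraries of Grik4 did not overlap, with CA2 below CA3, nor did those of Cpne4, with CA2 above CA3. Iyd stood at 7.03, 8.31 and 8.14 in CA2 and 10.84, 10.67 and 10.78 in CA3, without overlap, and did not pass (adjusted p = 0.499). It was called lower in 3 of 20 alternatives.

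Markers of neighbouring fields and of other cells were read in the same libraries. Of 13 CA1 markers, 7 were higher in CA2 and 1 lower (median 1.62), and their summed normalized level was 9002 to 12180 in CA2 and 3870 to 4421 in CA3, beside 107700 to 120600 in CA1 itself. Fibcd1, a receptor of the cell membrane, was higher by 3.31 and Pou3f1, a transcription factor, by 3.10. Of 13 granule cell markers, 3 were higher and 1 lower (median 0.72), with sums of 12780 to 15720 in CA2, 6091 to 6771 in CA3 and 122800 to 135800 in DG, and C1ql2 and Plk5 under 10 in the CA3 mean. Most of the CA2 sum is Ahcyl2 (1.97), a protein related to S-adenosylhomocysteine hydrolase, and without it the other 12 summed to 2609 to 4093 in CA2 and 2858 to 4292 in CA3, which overlap. Interneuron markers summed to 51420 to 59650 in CA2 and 32480 to 42280 in CA3, and 1 of 16, Gad1 (0.87, lost without mouse 492 or 496), was called. Their median difference was 0.61, and 15 of the 16 differences were above 0. At an unadjusted p below 0.05 by limma there were 8, of which 7 were higher in CA2, and up to 6 were called higher in another setting. In 10 mossy cell markers 1 was higher (Calcrl, 2.18, a call that several alternatives lost), with sums of 5659 to 6319 in CA2 and 4394 to 5332 in CA3 and Gal at 0 in CA2. The CA2 and CA3 sums of these 4 lists did not overlap, and without the most abundant member of each (Spink8, Ahcyl2, Cck or Ajap1) the CA1, interneuron and mossy cell sums were still apart, with CA2 above, and the granule cell sums were not. Leaving out 1 member was chosen after the sums were seen, and the part of neighbouring fields or other cells in the gene differences below was not tested.

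Lists of glial and vascular markers held 8 to 16 genes each, and 3.58% of all genes were called. At that share such short lists would hold few calls, so a count of 0 does not show that the fields are alike. Limma called 0 of 13 oligodendrocyte markers (2 at an unadjusted p below 0.05, and 1, Myrf, lower under each other scaling), 0 of 8 precursor markers (2 unadjusted) and 0 of 12 microglia markers (1 unadjusted). Sums were 37230 to 51320 in CA2 and 46990 to 58240 in CA3 for oligodendrocytes, 2207 to 3420 in CA2 and 2640 to 3040 in CA3 for their precursors, and 3322 to 4395 in CA2 and 2707 to 3536 in CA3 for microglia. All 3 ranges overlap. Of 16 endothelial and mural markers 1 was called (Rgs5, 0.61), with sums of 7684 to 11780 in CA2 and 5154 to 8365 in CA3. The call of Rgs5 was lost in 14 of 20 alternatives, each other scaling among them. Of 10 choroid and ependymal markers 1 was called (Ttr, 5.54), with sums of 972.2 to 1182 in CA2 and 687.6 to 970.5 in CA3 and Kcne2 at 0 in both. The call of Ttr was lost in 5 of 20, among them without mouse 492 or 502. Astrocyte markers summed to 77140 to 83780 in CA2 and 160700 to 164300 in CA3, without overlap, and 72320 to 73430 in CA1. Of these 14, 1 was called higher and 1 lower, with a median of -0.05 that was below 0 under each other scaling too. Slc1a2 (chr2:102658659-102790784), the glutamate transporter of astrocytes, was the lower one, with 15.57, 15.79 and 15.69 in CA2 and 17.11, 17.06 and 17.08 in CA3 (difference -1.40 ± 0.122, SE, adjusted p = 3.29e-08). The order of the sums turns on this gene, since without it the other 13 summed to 27300 to 28930 in CA2 and 22130 to 25500 in CA3, with CA2 above. Atp1b2, a subunit of the sodium pump, was higher by 0.71 (adjusted p = 0.0139), a call that several alternatives lost. Gfap, the intermediate filament of astrocytes, differed by 0.03, Aqp4, a water channel, by 0.27 and Slc1a3, a second glutamate transporter, by -0.08, and these were not called.

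Called genes of cyclic AMP synthesis and breakdown were all higher in CA2. Of 26 adenylyl cyclases and phosphodiesterases, 7 were higher and 0 lower by limma (also 0 lower before adjustment). The median was 0.48, and 4 were higher without mouse 502. Adcy1 (chr11:7063489-7178506), the cyclase that calcium and calmodulin switch on, had the smallest adjusted p of the named genes. Its values were 16.31, 16.30 and 16.30 in CA2 and 12.27, 12.45 and 12.66 in CA3, a difference of 3.84 ± 0.173 (SE, adjusted p = 5.39e-13). Its means in CA1 and DG, 14.89 and 16.11, were also above CA3. Adcy5 was higher by 2.00 ± 0.187 (SE), and Pde1b, which breaks down cyclic nucleotides, by 1.46. Of 17 RGS genes, which speed the shut-off of G proteins, 3 were higher and 2 lower (median 0.40). Under each other scaling 2 were higher and 3 lower. Unlike Rgs14, Rgs8 was lower, with 11.12, 11.28 and 11.49 in CA2 and 13.08, 12.90 and 12.94 in CA3 (difference -1.68 ± 0.22, SE). With mouse 492 or the CA2 library of mouse 502 left out, 1 RGS gene was higher.

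Of 53 neuromodulator receptors, 5 were higher and 0 lower by limma, and of 16 at an unadjusted p below 0.05, 12 were higher (median 0.38), while up to 6 were lower in another setting. Apart from Avpr1b, these included Npy1r, a neuropeptide Y receptor, with 9.99, 9.88 and 10.38 in CA2 and 7.51, 8.13 and 7.70 in CA3 (difference 2.30 ± 0.358, SE, adjusted p = 0.000158). Htr1b, a serotonin receptor, had 7.63, 6.79 and 6.85 in CA2 and 2.42, 3.16 and 4.09 in CA3 (3.87 ± 0.714, SE, adjusted p = 0.00125). Its CA1 mean, 11.05, was above both. The groups of both genes were apart. Without mouse 502, 2 of the list were higher, and 3 without mouse 496 or without 1 of 4 single libraries, those of CA2 from mice 492 and 502 and of CA3 from mice 492 and 496.

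Genes of calcium binding, signalling and transport went both ways. Of 34 genes listed for EF-hand motifs, calmodulin binding or inhibition of the kinase CaMKII, 6 were higher and 5 lower as deposited. Under each other scaling 8 were lower, and the median of 0.04 fell below 0 under scaling to totals. Camk2n1 (chr4:138454314-138460123), an inhibitor of the kinase CaMKII, was lower, with 12.73, 12.98 and 12.86 in CA2 and 14.67, 14.50 and 14.57 in CA3 (difference -1.73 ± 0.153, SE, adjusted p = 4.15e-08). Without mouse 496, 3 of that list were lower. Of 14 calcium pumps and sodium-calcium exchangers, 4 exchangers were higher and 0 genes lower by limma as deposited (8 passed an unadjusted p below 0.05, 5 of them higher), of which Slc24a3 was called in all alternatives (1.41 ± 0.219, SE), and the count was 1 or 2 whichever mouse or library was left out. Under each other scaling 3 were lower, the calcium pumps of the plasma membrane Atp2b1, Atp2b2 and Atp2b4. Mcu, the pore of the mitochondrial calcium uniporter, stood at 12.22, 12.24 and 12.19 in CA2 and 11.47, 11.35 and 11.20 in CA3. The groups did not overlap, and the difference of 0.88 ± 0.302 (SE) was not called (adjusted p = 0.141). Mcu was called higher in 2 of 20 alternatives.

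The ionotropic glutamate receptor genes called as deposited encode auxiliary proteins, but other scalings also called pore subunits of kainate receptors. Of 16 AMPA receptor genes, 4 were higher and 2 lower (median 0.39), and 2 were higher without mouse 496 or 502 or without 1 of 3 single libraries, the CA2 libraries of mice 496 and 502 and the CA3 library of mouse 492. Shisa9, an auxiliary protein, had 11.49, 11.40 and 11.73 in CA2 and 8.41, 9.05 and 8.79 in CA3 (difference 2.79 ± 0.328, SE, adjusted p = 3.53e-06). Cacng2, which encodes stargazin of the same family as Cacng5, went the other way, with 11.47, 11.40 and 11.45 in CA2 and 13.10, 13.05 and 12.94 in CA3 (-1.59 ± 0.196, SE, adjusted p = 6.64e-06). So members of 1 family differed in opposite directions. The pore subunits Gria1 and Gria2 differed by -0.03 and -0.22 and were not called. Limma called 0 of 7 NMDA receptor subunits (2 at an unadjusted p below 0.05) and 0 of 8 metabotropic glutamate receptors (3 unadjusted), and in another setting up to 2 NMDA subunits and up to 2 lower metabotropic receptors were called. Among 7 kainate receptor genes 2 were lower as deposited (median -0.38), both auxiliary subunits. The pore subunit Grik2 (-0.88 as deposited) was also lower under each other scaling, and Grik5 (-0.38 as deposited) after quantile normalization and scaling to totals outside the mitochondrial genome, for 3 to 4 in all. Neto1 had 12.98, 12.90 and 13.18 in CA2 and 14.52, 14.25 and 14.40 in CA3 (-1.37 ± 0.215, SE, adjusted p = 0.000172), and Neto2 had 11.64, 11.79 and 11.93 in CA2 and 13.55, 13.37 and 13.49 in CA3 (-1.68 ± 0.227, SE, adjusted p = 2.32e-05).

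Of 14 GABA-A receptor subunits 3 were higher (median 0.34), and 1 without mouse 492 or 496 or the CA3 library of mouse 492. Gabra3, the alpha 3 subunit, had 10.64, 9.75 and 9.62 in CA2 and 7.52, 7.54 and 7.67 in CA3 (difference 2.43 ± 0.395, SE, adjusted p = 0.000274). Of 62 potassium channel genes, 7 were higher and 6 lower (median 0.39), and under the other scalings 7 or 8 were higher and 8 lower. Kcnk2, the background channel TREK-1, had 12.11, 12.05 and 12.32 in CA2 and 8.61, 8.65 and 8.81 in CA3 (3.47 ± 0.234, SE, adjusted p = 3.45e-10), and Kcnh7, an ether-a-go-go related channel, was higher by 2.63. Kcng1, a silent subunit that modifies Kv2 channels, had 7.70, 8.52 and 8.00 in CA2 and 11.45, 11.56 and 11.39 in CA3 (-3.40 ± 0.485, SE), and Kcnab1, a beta subunit, was lower, with a difference of -1.53. Without mouse 502, 2 potassium channel genes were higher and 3 lower, and 4 were higher without the CA2 library of mouse 502 or the CA3 library of mouse 496. Of 28 sodium and calcium channel genes, 3 were higher and 4 lower, with a median of 0.06 that fell below 0 under each other scaling. Scn3b, an auxiliary sodium channel subunit, was lower (-1.63 ± 0.243, SE), and without mouse 502 the list had 0 higher and 2 lower. It had 1 higher without mouse 492 or the CA2 library of mouse 502, 1 lower without mouse 492, and 2 lower without the CA2 library of mouse 492 or the CA3 library of mouse 502.

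Aggrecan led the perineuronal net genes. Of 15 tested, 5 were higher and 1 lower (median 0.74), with 2 lower under each other scaling, and 1 to 3 were higher whichever mouse or library was left out. Acan (chr7:79053483-79115099), the core proteoglycan aggrecan, had 11.61, 11.37 and 11.95 in CA2 and 7.08, 6.93 and 6.58 in CA3 (difference 4.78 ± 0.59, SE, adjusted p = 6.64e-06). Tnr, the linker tenascin-R, had 13.36, 13.21 and 13.04 in CA2 and 14.42, 14.16 and 14.25 in CA3 (-1.08 ± 0.192, SE, adjusted p = 0.000815). The CA2 mean of Acan was above that of DG, 8.17, and CA1, 6.43.

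Genes of steroid, retinoic acid and growth factor signalling included several that were higher in CA2. Of 10 corticosteroid genes 2 were higher, with a list median of 0.10 that fell below 0 after quantile normalization or scaling to equal totals. Fkbp5, a chaperone that the glucocorticoid receptor induces, was higher by 1.51 ± 0.237 (SE), and Nr3c2, the mineralocorticoid receptor, by 1.06. The call of Nr3c2 was lost under scaling to equal totals, without mouse 502 and without trended and robust variances. Of 16 retinoic acid genes 2 were higher (median 0.02, below 0 under each other scaling), the receptor Rara by 1.985 ± 0.331 (SE) and the synthesis enzyme Aldh1a1 by 1.59 ± 0.222 (SE). Of 32 neurotrophin and growth factor genes 4 were higher (median 0.24), among them Fgf2 and Igf1r, the receptor of insulin-like growth factor, which was higher by 1.47 ± 0.188 (SE). Without mouse 492 or 502, or the CA3 library of mouse 492, 2 of that list were higher.

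Genes of transmitter release included some of the clearest that were lower in CA2. Of 56 tested, 4 were higher and 6 lower (median -0.08), and 3 were lower without mouse 492. Under the other scalings 11 or 12 were lower, with Syt16, Stx1a, Cplx2, Rimbp2 and Pclo added under each of them. With mouse 492 or 502 left out 1 was higher, and 2 were higher without mouse 496, the CA2 library of mouse 502 or the CA3 library of mouse 492 or 496. Rph3a (chr5:120940499-121010092), the Rab3 effector rabphilin, had 12.44, 12.68 and 12.47 in CA2 and 15.28, 15.22 and 15.11 in CA3 (difference -2.67 ± 0.166, SE, adjusted p = 1.02e-10). Synpr (chr14:13284780-13616340), the vesicle protein synaptoporin, had 8.97, 9.13 and 9.27 in CA2 and 12.54, 12.49 and 12.31 in CA3 (-3.32 ± 0.315, SE, adjusted p = 1.22e-07), with a DG mean of 13.44. Slc30a3, which loads zinc into vesicles, had 7.36, 7.89 and 8.14 in CA2 and 10.93, 10.62 and 10.70 in CA3 (-2.95 ± 0.335, SE). For all 3 the groups were well apart. Doc2b, a calcium sensor of spontaneous release, was higher, with 10.03, 10.22 and 10.32 in CA2 and 6.08, 7.17 and 6.45 in CA3 (3.62 ± 0.245, SE, adjusted p = 3.69e-10). Nos1 (chr5:117781032-117958840), the neuronal nitric oxide synthase, had 10.84, 10.88 and 10.55 in CA2 and 13.60, 13.54 and 13.36 in CA3 (-2.75 ± 0.165, SE, adjusted p = 5.53e-11).

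Guidance and adhesion genes distinguished the fields in both directions. Of 65 axon guidance genes, 5 were higher and 10 lower (median -0.11), with 3 higher and 6 lower without mouse 492, 2 and 6 without mouse 502, and 2 higher without mouse 496. Without the CA2 library of mouse 502 or the CA3 library of mouse 492, 3 were higher. Sema5b (chr16:35541145-35664732), a semaphorin, had 2.53, 6.93 and 4.73 in CA2 and 10.81, 10.95 and 10.92 in CA3, a difference of -6.16 ± 0.666 (SE, adjusted p = 1.04e-06). Its CA3 libraries were close together and its CA2 libraries spread widely at low levels. Ntng2, the membrane-anchored netrin-G2, was lower (difference -2.46 ± 0.258, SE), as was the receptor kinase Ephb1 (-2.16 ± 0.252, SE), while Sema7a, a membrane-anchored semaphorin, was higher by 1.61 ± 0.192 (SE). Spon1 (chr7:113765998-114043370), the secreted protein F-spondin, had 11.41, 11.44 and 11.67 in CA2 and 7.11, 7.35 and 7.49 in CA3 (4.19 ± 0.242, SE, adjusted p = 3.84e-11). Of 31 cadherins, 4 were higher and 3 lower (median 0.35), with 2 higher without mouse 502 and 1 lower without mouse 492. Cdh9, a cadherin of mossy fibre synapses, had 8.43, 9.28 and 9.44 in CA2 and 12.42, 11.95 and 11.95 in CA3 (-3.06 ± 0.402, SE), and the giant cadherins Fat4 and Fat3 were higher by 2.73 and 1.53.

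Of 59 synaptic adhesion and organizer genes, 10 were higher and 5 lower (median 0.27), with 7 or 8 lower under the other scalings, and 5 were higher without mouse 492 or the CA2 library of mouse 502 and 6 without mouse 496. The pentraxins split. Nptx2 had 12.31, 12.33 and 12.70 in CA2 and 9.62, 9.46 and 9.50 in CA3 (2.92 ± 0.334, SE, adjusted p = 2.34e-06), while Nptx1 was lower and so was Nptxr, their receptor, with 15.31, 15.41 and 15.44 in CA2 and 16.88, 16.82 and 16.98 in CA3 (-1.51 ± 0.192, SE, adjusted p = 1.08e-05). Scaffold genes of the postsynaptic density gave 3 higher and 4 lower of 30, with a median of 0.03 that fell below 0 under each other scaling, where 5 to 9 were lower. The higher count was 1 without mouse 492, and the lower count was 1 or 2 with any mouse or library left out except the CA3 library of mouse 496, where it was 3. Homer2 had 13.15, 13.18 and 13.19 in CA2 and 10.62, 10.76 and 10.74 in CA3 (2.46 ± 0.19, SE, adjusted p = 3.72e-09). Iqsec3, an exchange factor of inhibitory synapses, was lower (-1.33 ± 0.153, SE).

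Transcription factors split 12 higher to 5 lower of 58 (median 0.35), and the counts with a mouse left out were 4 or 5 higher and 1 to 3 lower. They were 7 higher without the CA2 library of mouse 502 or the CA3 library of mouse 496, 6 without the CA3 library of mouse 502, and 2 or 3 lower without the CA2 library of mouse 492 or the CA3 library of mouse 492 or 502. Bcl11b, known as CTIP2, had 13.39, 13.37 and 13.67 in CA2 and 10.62, 10.76 and 10.71 in CA3 (difference 2.78 ± 0.186, SE, adjusted p = 3.2e-10). Bcl6 (chr16:23965052-23988852), a repressor outside that list, had 12.661, 12.694 and 12.998 in CA2 and 8.373, 8.607 and 8.649 in CA3 (4.24 ± 0.253, SE, adjusted p = 5.53e-11). Means of Bcl6 in CA1 and DG, 12.64 and 12.42, were near that of CA2, and those of Bcl11b, 14.34 and 13.95, were above it. Lmo4, a LIM-domain cofactor, was lower, with 10.79, 11.04 and 11.48 in CA2 and 13.64, 13.68 and 13.39 in CA3 (-2.47 ± 0.318, SE, adjusted p = 1.23e-05). Of 16 immediate early genes, Egr3 was lower (-1.70 ± 0.229, SE), with Jun also lower under each other scaling, and Nr4a1 higher (1.10, a call lost in several alternatives).

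Mitochondrial and housekeeping groups gave few calls, where 3.58% of all genes were called. Limma called 0 of the 13 mRNAs of the mitochondrial genome (4 at an unadjusted p below 0.05, each higher in CA2). Their median was 0.46, and 0.23 after quantile normalization, and up to 3 were called in another setting. It called 0 of 37 nuclear genes of complex I (2 unadjusted), with a median of 0.30, and 0 of 39 genes of complexes II to V (5 unadjusted), with a median of 0.38, though 39 of the 39 differences were above 0. In other settings up to 4 genes of complex I and up to 8 of the other complexes were called. The library of CA2 mouse 502 was the highest of the 6 for mt-Co1, the first subunit of cytochrome oxidase, with 19.47, 19.30 and 19.76 in CA2 and 19.24, 19.08 and 18.82 in CA3. Of 10 uniporter genes 1 was higher, Mcur1 (0.86). Its call was lost in 12 of 20 alternatives, among them quantile normalization and any mouse or library left out. Limma called 0 of 20 genes of mitochondrial fusion, fission and transport (2 unadjusted, with Trak1 lower under each other scaling), 0 of 82 cytosolic ribosomal protein genes (1 unadjusted, median 0.08 and below 0 under each other scaling) and 0 of 34 proteasome genes (1 unadjusted, median 0.13). Of 36 enzymes of glycolysis and the citric acid cycle, 2 were higher and 1, Eno1 (-0.66), was lower, and all 3 calls were lost in some alternative.

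**Figure D3:**
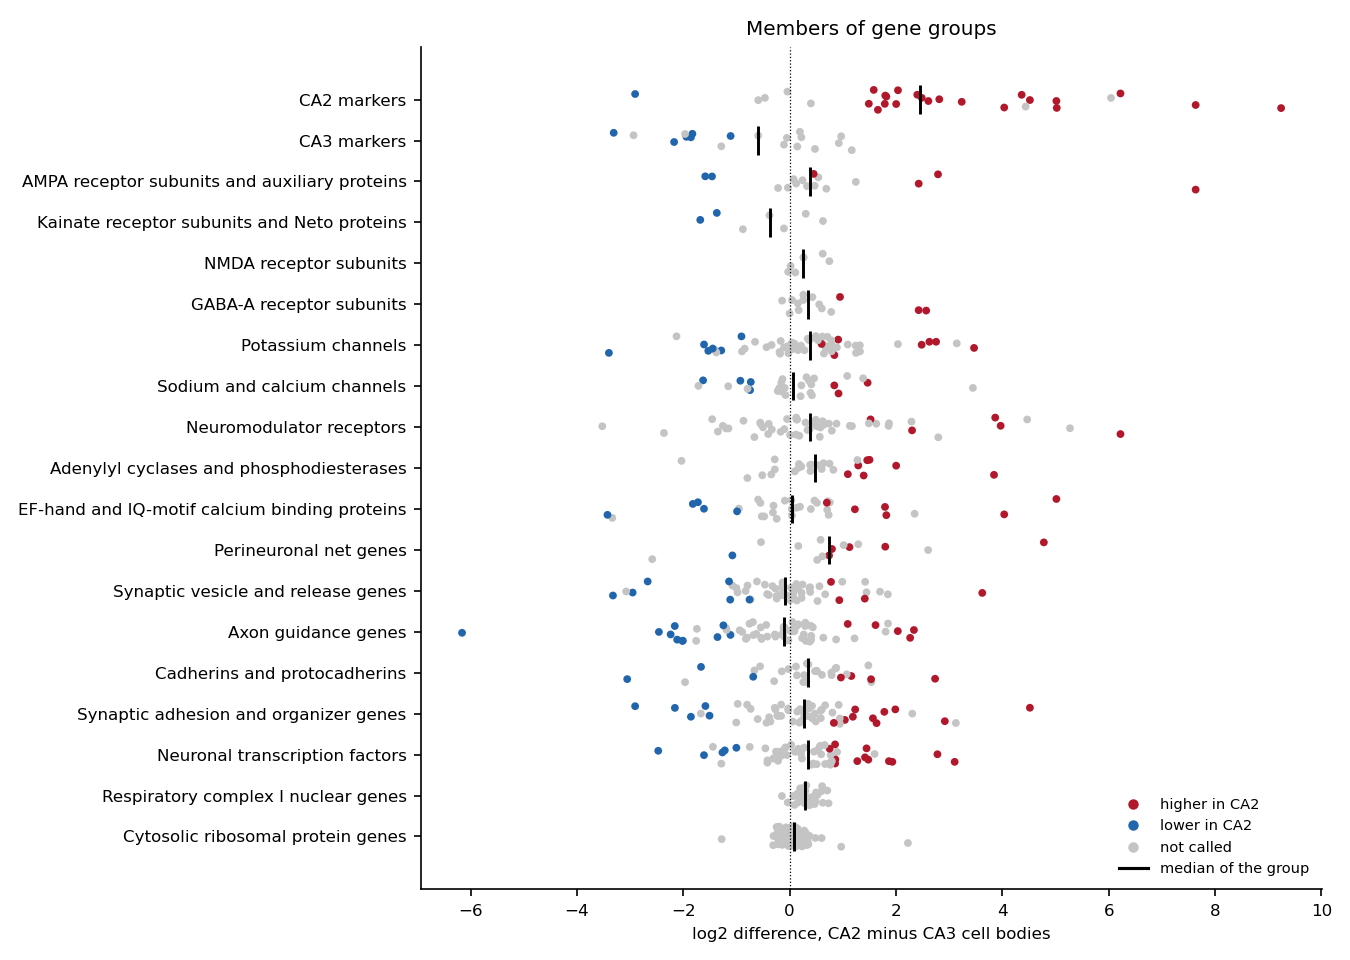
Log2 difference (CA2 minus CA3 cell bodies, horizontal axis) of each tested member of 19 gene groups, with members higher in CA2 in red, lower in blue and not called in grey, and a black line at the group's median. The CA2 marker group is the most shifted, with its median at 2.44, and the ribosomal protein group is centred at 0.08 with no member called.

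Among the genes with the greatest differences were several outside these groups. Tiam2, an exchange factor for Rac, had 11.64, 11.78 and 11.77 in CA2 and 7.51, 7.72 and 6.68 in CA3 (difference 4.43 ± 0.462, SE, adjusted p = 5.66e-07). Fam46a had 11.07, 10.93 and 11.06 in CA2 and 4.64, 6.53 and 5.56 in CA3 (5.44 ± 0.544, SE, adjusted p = 2.91e-07). Angpt1, a ligand of the vascular receptor Tie2, had 9.14, 9.36 and 9.29 in CA2 and 0.19, 6.54 and 3.67 in CA3 (5.80 ± 0.864, SE, adjusted p = 9e-05). All CA2 libraries of Angpt1 were alike and its CA3 libraries were widely spread. Chst9, a sulfotransferase, was listed at 0 in all 3 CA2 libraries and at 7.09, 6.54 and 6.38 in CA3, and its call (adjusted p = 0.00177) was lost without mouse 502.

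The dendritic layers of CA2 and CA3, from the same mice, were compared in the same way. There 61 genes were higher in CA2 (0.245%) and 223 lower (0.895%), with a median difference of -0.05 for all genes. Of the genes higher in CA2 cell bodies, 10 were also higher in CA2 dendrites, which is 1.74% of the cell body calls and 16.4% of the dendritic calls. Of those lower, 64 were lower in dendrites too, which is 20.1% of the cell body calls and 28.7% of the dendritic calls. The test of the difference between the layers called 348 genes (1.4%), 278 with a higher CA2 minus CA3 difference in cell bodies (1.12%) and 70 with a lower one (0.281%), and the count was 73 to 87 with a whole mouse left out. It was 183, 175, 173, 175 and 204 without the CA2 cell body library of mouse 492 or 502 or the CA3 cell body library of mouse 492, 496 or 502. Of the 574 genes higher in cell bodies 239 were among them, and of the 318 lower 56. The test of the layers contains the same cell body difference that chose these genes, so they are favoured among its calls by construction. Dendritic libraries were made from 1 ng of RNA and cell body libraries from 5 ng, so layer and input amount cannot be told apart.

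Adcy1 was higher in CA2 in both layers, by 3.84 in cell bodies and 1.597 in dendrites (adjusted p = 1.79e-05 for dendrites), and the layers differed (adjusted p = 9.85e-06). Cacng5, by contrast, differed by 7.63 in cell bodies and 0.49 in dendrites, and the layers differed by 7.15 ± 0.703 (SE, adjusted p = 2.54e-06). Spon1 differed by 4.19 in cell bodies and -0.22 in dendrites, with a difference between layers of 4.41 (adjusted p = 8.75e-08). Among genes lower in CA2, the scaffold Homer3, a CA3 marker, differed by -1.11 in cell bodies, a call lost with any mouse left out, and -1.50 in dendrites, and Bok by -2.17 in cell bodies and -2.18 in dendrites. The test of the layers did not call either (adjusted p = 0.78 and 1). Homer2 was higher by 2.46 in cell bodies and 1.55 in dendrites, and that difference between layers was not called (adjusted p = 0.11). Of 28 CA2 markers, 3 were higher and 1 lower in dendrites, and the layers differed for 14 of them. Of 19 CA3 markers, 4 were lower in dendrites and the test of the layers called 0 by limma (5 at an unadjusted p below 0.05), where it called 1.4% of all genes (2839 unadjusted).

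**Figure D4:**
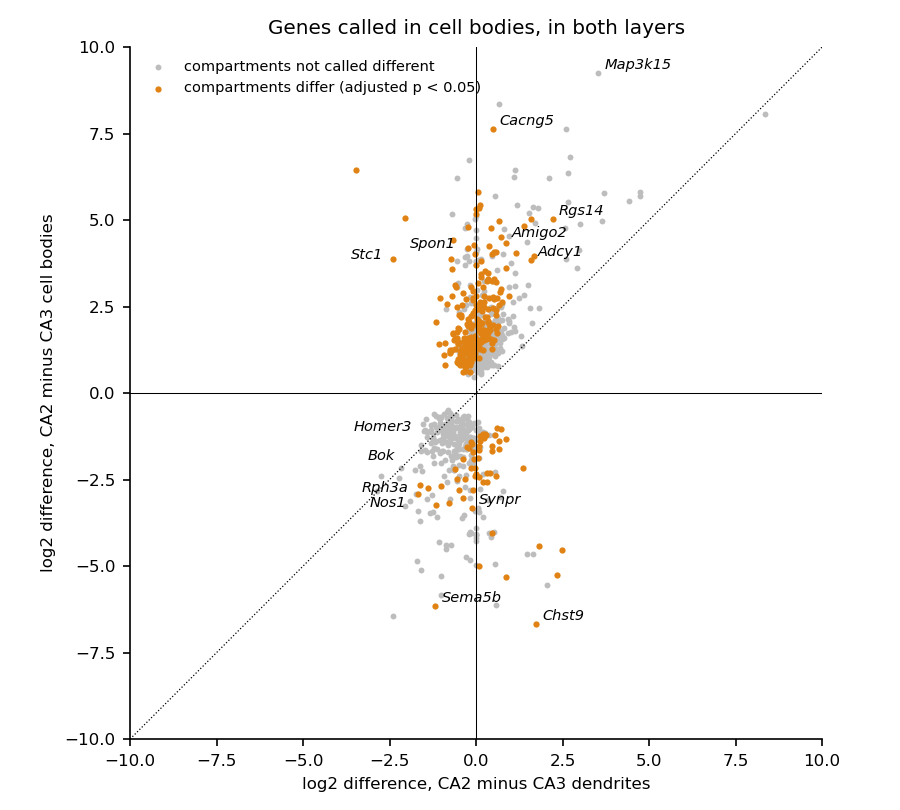
Log2 difference (CA2 minus CA3) in cell bodies (vertical axis) against that in dendrites (horizontal axis) for the 892 genes called in cell bodies, with genes whose layers differ at an adjusted p below 0.05 in orange and a dotted line where both would be equal. Most genes higher in cell bodies lie near 0 on the dendrite axis, as Cacng5 does at 0.49, while Bok lies on the line, at -2.17 in cell bodies and -2.18 in dendrites.

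Transcripts of 1 gene can differ between fields by unequal amounts, which was tested over 34762 transcripts of 10025 genes. Limma's diffSplice called 10 genes (0.0998%, and 329 at an unadjusted p below 0.05): Kalrn, Vcan, Dnah9, Shank2, Ttn, Trp53i11, Rps16, Spef2, Syne2 and Trim2. Kalrn kept its call in every alternative. Calls numbered 9, 2 and 1 without mouse 492, 496 and 502. Values are the authors' estimates per transcript, with transcripts matched by their IDs to GENCODE vM21 on GRCm38.

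Kalrn (chr16:33969073-34573532, minus strand) encodes kalirin, an exchange factor for small GTPases in dendritic spines, and its transcripts begin at widely spaced starts (adjusted p = 2.97e-11 for unequal change). Kalrn-207, which begins 59484 bases downstream of the start of Kalrn-208, was higher in CA2, with 15.17, 15.11 and 15.34 against 13.75, 14.04 and 13.92 in CA3 (difference 1.30 ± 0.0995, SE). Kalrn-208, annotated as a processed transcript with 0 coding bases, was higher by 3.04 ± 0.35 (SE). Kalrn-204 and Kalrn-206, which begin 310339 and 310332 bases downstream of the start of Kalrn-208, inside the gene, were lower. Kalrn-204 had 9.49, 9.09 and 8.64 in CA2 and 11.41, 12.06 and 12.08 in CA3 (-2.77 ± 0.373, SE), and Kalrn-206 had 7.12, 8.56 and 4.70 in CA2 and 11.47, 12.14 and 11.18 in CA3 (-4.80 ± 1.03, SE). So Kalrn-207 and Kalrn-208 lay above CA3 and Kalrn-204 and Kalrn-206 below it, in every library. Kalrn-202 begins close to Kalrn-207, 59446 bases downstream of the start of Kalrn-208. It had 9.73, 11.77 and 12.32 in CA2 and 10.71, 10.47 and 10.71 in CA3. These groups overlap, and the difference of 0.64 ± 0.706 (SE) was not called. Kalrn-212, which begins further downstream still, at 477545 bases, was higher in CA2 by 1.27 ± 0.297 (SE), so the direction did not follow the order of the starts. Means of Kalrn-206 in CA1 and DG, 12.74 and 12.19, were on the side of CA3.

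Trim2 (chr3:84160439-84306877, minus strand) encodes a neuronal ubiquitin ligase, and 3 of its transcripts begin at separate starts. Their promoters are printed beside that of Kalrn-207 so that the starts used can be set side by side; capitals mark CG dinucleotides, which cluster at many promoters of broadly expressed genes. Each holds 250 bases before and 50 after a RefSeq start of GRCm38.p6, on the minus strand, at chr3:84304726-84305025 for Trim2-204, chr3:84259730-84260029 for Trim2-203, chr3:84220828-84221127 for Trim2-206 and chr16:34513978-34514277 for Kalrn-207.

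Trim2-204: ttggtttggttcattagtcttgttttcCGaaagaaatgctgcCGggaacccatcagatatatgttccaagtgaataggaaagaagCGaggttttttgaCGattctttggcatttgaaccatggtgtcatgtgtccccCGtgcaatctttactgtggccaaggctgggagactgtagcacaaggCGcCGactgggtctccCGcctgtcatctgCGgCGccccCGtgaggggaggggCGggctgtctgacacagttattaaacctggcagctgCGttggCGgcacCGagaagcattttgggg
Trim2-203: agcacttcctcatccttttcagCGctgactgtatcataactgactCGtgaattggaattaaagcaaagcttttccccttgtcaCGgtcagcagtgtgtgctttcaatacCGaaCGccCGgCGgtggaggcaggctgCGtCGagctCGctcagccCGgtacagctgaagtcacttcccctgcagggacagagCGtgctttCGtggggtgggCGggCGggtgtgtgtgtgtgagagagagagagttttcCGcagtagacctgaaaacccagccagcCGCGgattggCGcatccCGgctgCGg
Trim2-206: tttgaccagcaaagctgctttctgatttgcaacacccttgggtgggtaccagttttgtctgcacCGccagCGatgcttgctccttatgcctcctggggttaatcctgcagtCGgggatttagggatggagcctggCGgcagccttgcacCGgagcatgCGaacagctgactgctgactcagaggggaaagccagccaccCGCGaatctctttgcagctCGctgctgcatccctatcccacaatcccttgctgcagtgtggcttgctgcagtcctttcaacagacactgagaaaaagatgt
Kalrn-207: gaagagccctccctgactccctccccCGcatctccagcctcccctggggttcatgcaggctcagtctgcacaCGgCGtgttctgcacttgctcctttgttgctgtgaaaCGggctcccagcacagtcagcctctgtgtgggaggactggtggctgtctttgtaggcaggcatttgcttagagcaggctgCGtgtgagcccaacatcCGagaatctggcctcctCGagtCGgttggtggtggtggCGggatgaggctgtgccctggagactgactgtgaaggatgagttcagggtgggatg

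These windows hold 15, 21, 9 and 9 CG in the order printed. Of 32851 RefSeq promoters of the same 300 bases, whose median is 7, 34.6%, 24.8%, 45.8% and 45.8% hold at least as many. Trim2-203 had 14.62, 14.53 and 14.55 in CA2 and 14.11, 14.09 and 14.03 in CA3, and Trim2-204 had 13.13, 13.42 and 13.48 in CA2 and 12.55, 12.68 and 12.95 in CA3. Trim2-206, which begins 83920 bases downstream of Trim2-204 and has the fewest CG of the 3, had 7.82, 8.71 and 8.53 in CA2 and 11.73, 11.26 and 11.60 in CA3 (difference -3.18 ± 0.743, SE). The first 2 were above CA3 in every library, by 0.49 ± 0.179 and 0.62 ± 0.296 (SE), but limma called neither (adjusted p = 0.444 and 0.784). Trim2-206 was below CA3 in every library and was called (adjusted p = 0.0466). The call for Trim2 (adjusted p = 0.0253) was lost with any mouse left out, and the starts used by Shank2 and by Kalrn-204 and Kalrn-206 are named here without a promoter.

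Vcan (chr13:89655312-89742509, minus strand), the net proteoglycan versican, was called by diffSplice for unequal change among 3 transcripts (adjusted p = 5.49e-06). These transcripts differ in large exons, and no exon was tested by itself. An exon of 5217 bases at chr13:89688285-89693501 is in Vcan-203 and Vcan-206 and not in Vcan-202, and an exon of 2880 bases at chr13:89702918-89705797 is in Vcan-203 and Vcan-202 and not in Vcan-206. Vcan-206 had 10.15, 10.13 and 10.56 in CA2 and 5.26, 5.48 and 5.97 in CA3 (difference 4.71 ± 0.807, SE), and Vcan-203 was higher by 4.13 ± 0.451 (SE). Vcan-202 had 6.95, 5.08 and 4.50 in CA2 and 7.88, 7.14 and 6.83 in CA3, below CA3 in each mouse but with groups that overlap (-1.77 ± 0.62, SE). Limma did not call the difference of Vcan-202 (adjusted p = 0.381). The forms with the 5217-base exon thus lay above CA3 without overlap, and the call was lost without mouse 496 (adjusted p = 0.0506) or mouse 502 (adjusted p = 0.143). At the gene level Vcan was higher in CA2 by 1.80, a call lost in several alternatives.

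Shank2 (chr7:144001928-144424494, plus strand), a scaffold of excitatory synapses, was called with 2 transcripts that went opposite ways (adjusted p = 0.000347). Shank2-202 had 13.43, 13.31 and 13.74 in CA2 and 11.62, 11.15 and 10.97 in CA3 (difference 2.25 ± 0.278, SE). Shank2-205, which begins 108910 bases downstream, had 10.80, 11.09 and 9.71 in CA2 and 12.82, 12.65 and 12.71 in CA3 (-2.19 ± 0.27, SE). Neither transcript's groups overlapped, and the call was lost without mouse 496 (adjusted p = 0.125) or mouse 502 (adjusted p = 0.67). The call of Rps16 rests on a transcript at 0 in 1 of the CA2 libraries, in a gene with near-identical copies, and that of Ttn on transcripts near the floor, so both are uncertain. With a limit of 100 on transcript values both lost their call by diffSplice. So did Dnah9 (adjusted p = 0.711), Trp53i11 (adjusted p = 0.683) and Syne2, and Spef2 had no result, so these calls are uncertain too.

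**Figure D5:**
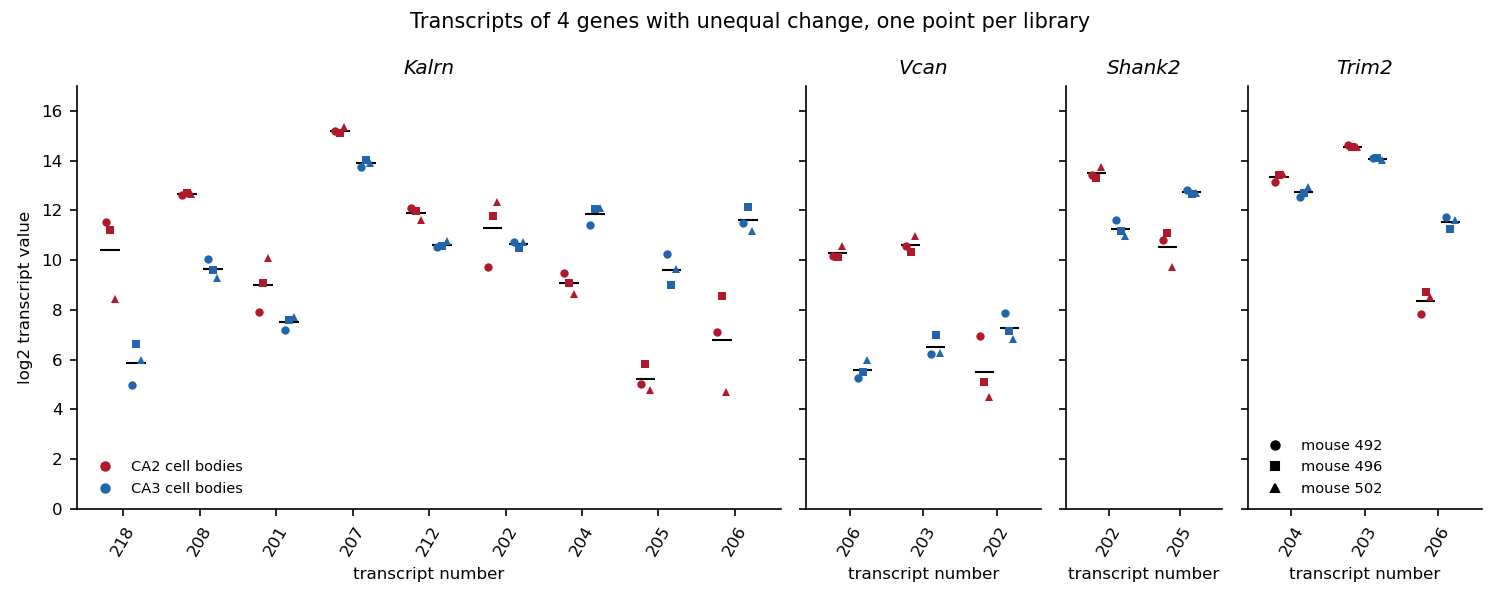
Log2 transcript value (vertical axis) of each tested transcript of Kalrn, Vcan, Shank2 and Trim2 in the CA2 (red) and CA3 (blue) cell body libraries, with symbols for the 3 mice and a line at each group's mean. Within each gene some transcripts lie above CA3 and others below, as with Shank2-202 and Shank2-205.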

How the data were processed

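The deposited gene and transcript tables hold log2 values, which the authors made from read estimates; per the file headers, gene values are median-normalized Salmon estimates, and the scaling of transcript values is not stated there. The submitters' processing notes name STAR 2.5.1b, Salmon 0.9.1, featureCounts 1.5.1, DESeq2 1.18.1, R 3.4.2, limma 3.32.2 and mm10, without their roles, and none of the sources read here gives the annotation release. Per the labels' protocols, sections were 8 µm thick, cell body libraries took 5 ng and dendritic libraries 1 ng of RNA with 16 PCR cycles, and reads were paired, of 100 bases. Scaling and estimation by the authors fix the levels, and depth per library is unknown.

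Genes with a value of at least 10 in 3 libraries were kept (24911 of 49341). Limma 3.58.1 (statmod 1.5.0, R 4.3.3) fitted 8 groups with mouse as a block (14 residual degrees of freedom) and trended, robust variances; calls are Benjamini-Hochberg adjusted p below 0.05. Labels give CA2 and CA3 libraries of 1 number to the same animal, whose 8 libraries were prepared together. Deviations of same-mouse libraries correlated by 0.014, 0.055 and -0.013 over 12267 genes. Transcripts were tested with diffSplice. The procedure was tested on simulated data. Alternatives were other scalings, filters, variance models, groups fitted, and each mouse or library left out.

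The members and the 44 gene lists were chosen with earlier results of these data known. The genes named are the 14 greatest differences each way and the 8 smallest adjusted p values that passed a level limit of 100, up to 4 called genes per list, all CA2 and CA3 markers, Mcu, 6 each way by layer and 6 by transcript. Gfap, Aqp4, Slc1a3, Gria1, Gria2, mt-Co1, Rps16 and other genes named as uncalled or at 0 were chosen after their values were seen. A further 12 columns of array values were not used. Results that need items withheld for evaluation are not reported here.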

Additional observations from a re-analysis of the deposited data

Results flagged for a closer look

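The CA2 minus CA3 difference was itself different between cell bodies and dendrites for 57 of the genes named, by limma's test of that difference at an adjusted p below 0.05. That test contains the cell body difference for which many of these genes were named, so it is no separate support for their cell body calls. Each value is the log2 difference in cell bodies minus that in dendrites. For 43 genes it was above 0. Those listed as CA2 markers gave 7.148 for Cacng5, 3.792 for Amigo2, 3.429 for Pcp4, 2.91 for Fgf2, 2.875 for Necab2, 2.806 for Rgs14, 2.426 for Gpr12, 1.859 for Ptpn5, 1.833 for Mgst3, 1.709 for S100b, 1.705 for Srgap2, 1.628 for Adcy5 and 1.238 for Lman2. Among genes outside that list it was 6.271 for Stc1, 5.737 for Angpt1, 5.321 for Fam46a, 5.242 for Fam160a1, 5.087 for Tiam2, 4.583 for Htr1b, 4.41 for Spon1, 4.349 for Acan, 3.879 for Bcl6, 3.486 for Dnah9, 3.112 for Kcnk2, 2.805 for Shisa9, 2.788 for Fibcd1 and 2.756 for Doc2b, then 2.386 for Kcnh7, 2.382 for Npy1r, 2.381 for Gabra3, 2.283 for Bcl11b, 2.246 for Adcy1, 2.239 for Nptx2, 2.13 for Fat4 and 1.96 for Rara. The values nearest to 0 were 1.879 for Ahcyl2, 1.749 for Sema7a, 1.669 for Pde1b, 1.456 for Fat3, 1.328 for Igf1r, 1.258 for Gad1, 1.249 for Nr3c2 and 0.937 for Trim2.

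For the other 14 genes it was below 0: -8.402 for Chst9, -4.984 for Sema5b, -4.514 for Cdh23, -3.514 for Bicc1, -3.218 for Synpr, -2.98 for Lct, -2.147 for Lmo4, -2.127 for Ephb1, -1.663 for Trp53i11, -1.608 for Kcnab1, -1.514 for Slc1a2, -1.348 for Nos1, -1.229 for Nptx1 and -1.055 for Rph3a. Chst9 was listed at 0 in all 3 CA2 cell body libraries, so its value depends on that floor and is no fold. Nptx1, Rph3a and Nos1 were lower in CA2 in both layers, whereas Synpr differed by -3.32 in cell bodies and -0.10 in dendrites. Layer cannot be told apart from the amount of RNA in the library.

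None of the 57 changed sign in the 19 alternatives run for the layers, which were read gene by gene after the calls were seen. The call held in all 19 for 13 genes, which are Cacng5, Tiam2, Spon1, Bcl6, Amigo2, Kcnk2, Necab2, Rgs14, Doc2b, Bcl11b, Adcy1, Synpr and Slc1a2, and 44 lost it in at least 1, where leaving out a whole mouse took the calls over all genes down to 73 to 87, against 348 with all mice. In the cell body comparison itself, the calls of Stc1, Bicc1, Lct and Cdh23 were lost in 6, 10, 1 and 1 of 20 alternatives.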

How the results depend on the processing

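No named gene called in cell bodies changed sign in any of the 20 alternatives. Of 143 such genes 76 kept their call in all 20, and 67 lost it in at least 1, of which 9 lost it under another scaling. Another 48 of the 67 lost it only with libraries left out, only the 6 libraries fitted or variances not trended and robust. Genes lower in CA2 numbered 529 after quantile normalization, 499 after scaling to equal totals and 534 after scaling to totals outside the mitochondrial genome, and 1786 higher and 1117 lower genes were called with fewer groups in the fit. With 1 mouse or library left out, higher genes numbered 239 to 493, lower genes 125 to 255, genes whose layers differ 73 to 295 and genes with unequal transcript change 1 to 9. Genes whose layers differ numbered 164 without trended and robust variances, and genes with unequal transcript change 4 with a limit of 100 and 135 with only the 12 cell body libraries. The cause was not tested, except that leaving libraries out lowers the number of samples. Without the replicate block, 540 genes were higher and 296 lower, and the block changed none of these counts by over 1.5 times.

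Uncalled genes near 0 changed sign. With 1 mouse or library left out, Spock1 gave -0.025 to 0.379, Prss12 -0.45 to 0.435, Plagl1 -0.503 to 0.318, Grik4 -0.21 to 0.006 and Slc35d3 -2.193 to 1.059, and Slc35d3 gave 0.142 with 15 added before the log2. With 3 mice per group and no read counts, small differences and genes near the floor are the least certain, and a p above the threshold does not show that the fields are alike.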
